A study of Homo sapiens with 6 samples.

Results

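The genes described here are 33 enzymes that break down glucose, measured in A549 cells, a human lung adenocarcinoma line. They are 21 genes of glycolysis (with the PFKFB regulators of phosphofructokinase and lactate dehydrogenase), 6 genes of the pyruvate dehydrogenase step and 6 genes of the pentose phosphate pathway. Members were found by gene symbol from a fixed list, and the rule uses no measured value. All 33 had a row among the 30230 genes of the count table, and all 33 were among the 17076 genes that passed the filter on low counts.

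RNA sequencing of polyadenylated RNA was done on 3 libraries of A549 cells given a scrambled siRNA (NC) and 3 libraries of A549 cells given an siRNA against FSCN1 (siFSCN1), which encodes fascin, a bundler of actin filaments. According to the methods, all transfected cells were harvested at the same time point. The treatment label of the NC samples names a control plasmid rather than a scrambled siRNA. A single siRNA was used for siFSCN1, so that loss of FSCN1 and other effects of that siRNA cannot be told apart, and no other allele or agent was named for either group. The sources call the libraries biological replicates without saying that they came from separate cultures, so p-values measure the spread between these libraries.

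Glycolysis splits glucose into pyruvate in the cytosol, and lactate dehydrogenase turns that pyruvate into lactate and restores NAD+. The pentose phosphate pathway branches off at glucose 6-phosphate. Its oxidative branch makes NADPH, and its non-oxidative branch makes ribose 5-phosphate for nucleotides and returns sugars to glycolysis. Pyruvate dehydrogenase carries pyruvate into the mitochondrial citric acid cycle and is switched off by its kinases, the PDKs. Tumour cells are known for a high rate of glycolysis even where oxygen is present.

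FSCN1 itself was at 45.0, 47.2 and 46.0 FPKM in NC and 4.46, 2.82 and 3.19 FPKM in siFSCN1, so that the targeted transcript separated the groups as labelled (log2 fold change -3.89, adjusted p = 8.1e-16, edgeR). Library totals lay between 27967301 and 36560919 counts. The epithelial keratins KRT8, KRT18 and KRT7 were abundant in every library, and the summed FPKM of all 6 epithelial markers was 3117 to 3498 in NC and 1759 to 2115 in siFSCN1. The 4 keratins fell, while CDH1 (log2 fold change 1.35) and EPCAM (0.29) rose. Markers of other cells were at or near 0, with summed FPKM of at most 0.04 for endothelial cells and 0.40 for fibroblasts. Of the 3 leukocyte markers with a row, PTPRC and CD3E were at or near 0, while CD14 was at 2.79 to 2.99 FPKM in NC and 3.86 to 4.82 in siFSCN1. The share of counts in protein genes of the mitochondrial genome averaged 8.93% (SD 0.341) over the NC libraries and 12.7% (SD 0.106) over the siFSCN1 libraries, with n = 3 each. The part of these shifts in the results on the enzymes was not tested.

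FPKM, fragments scaled to transcript length and library depth, allows levels to be set side by side between genes, but the deposited FPKM carries no correction for composition. Fold changes therefore come from the counts after TMM scaling, under which the median log2 fold change over every tested gene was 0.03. That median was 0.15 with upper quartile scaling and 0.22 with library totals, and the share of higher genes among all called genes moved from 51.4% to 61.4% and 67.5%. A fold change in the text thus lies somewhat below the ratio of the FPKM values beside it. In bulk RNA, fewer cells with a transcript and less of that transcript per cell cannot be told apart.

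Most of the glucose enzymes were lower in siFSCN1. Of the 33 genes, 25 fell and 5 rose at an adjusted p under 0.05 in edgeR's quasi-likelihood test, and 3 did not pass. Among all tested genes 33.2% fell and 35.1% rose. The median log2 fold change of the 33 genes was -0.42. PFKP, ALDOC and RPIA fell at least 2-fold, a size of fall found in 4.85% of tested genes. No enzyme rose at least 2-fold, against 11.7% of tested genes. The CPM (TMM-scaled counts relative to library size) of siFSCN1 lay below every NC library for 25 enzymes, against 34.4% of tested genes, and above every NC library for 4, against 36.8%.

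**Figure D1:**
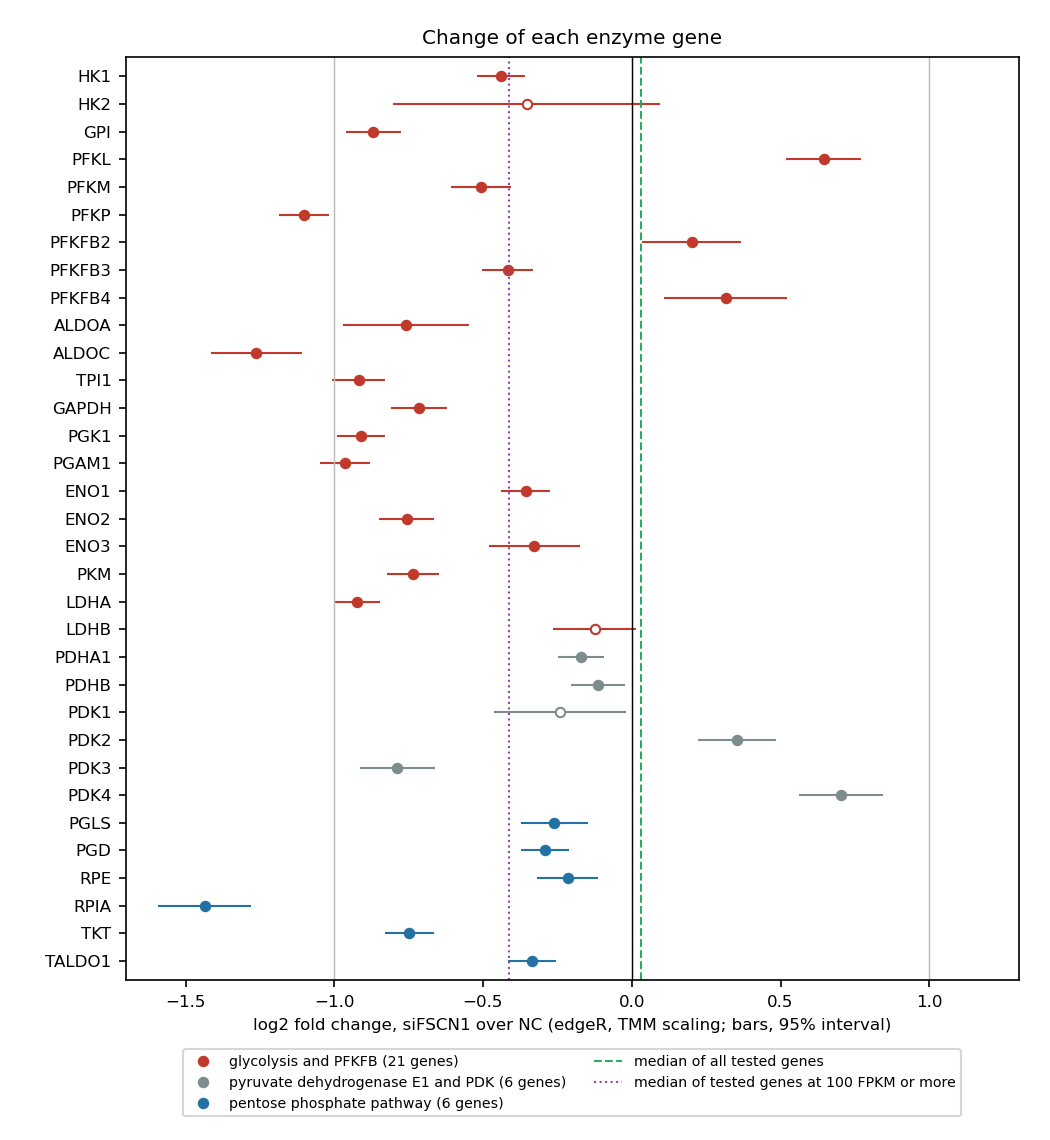
Log2 fold change of each of the 33 enzyme genes (x axis, siFSCN1 over NC, TMM-scaled counts), with the 95% interval as a bar and an open circle where the adjusted p did not pass 0.05. Most points lie left of 0, from -1.44 for RPIA to 0.70 for PDK4, and those of LDHB, PDHA1 and PDHB cross 0 under other scalings.

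The fall was not spread evenly. Among the 21 glycolysis genes 16 fell, 3 rose and 2 did not pass, with a median log2 fold change of -0.71. All 6 pentose phosphate genes fell, with a median of -0.31, and 3 of the 6 pyruvate dehydrogenase genes fell while 2 rose, with a median of -0.14. Upper quartile scaling left the fall of 5 pentose phosphate genes past the threshold and library totals that of 4, against 16 and 15 glycolysis genes. Under these scalings 26.4% and 22.4% of all tested genes fell. The summed level of the glycolysis genes was 6289, 6246 and 6178 FPKM in NC and 4478, 4256 and 4088 FPKM in siFSCN1, which is 68.5% of the NC mean. For the pentose phosphate genes the summed level was 822, 784 and 809 FPKM in NC and 713, 673 and 669 FPKM in siFSCN1, or 85.1%. In both sums every siFSCN1 library lay below every NC library. The ratio of the glycolysis sum to the pentose phosphate sum, which needs no scaling between libraries and was not tested, was 7.75 ± 0.189 (SD, n = 3) in NC, against 6.24 ± 0.111 (SD, n = 3) in siFSCN1. PGD alone averaged 437 FPKM in NC and 400 FPKM in siFSCN1, where the pentose phosphate sum averaged 805 and 685 FPKM. Without PGD that sum fell further, as given in the closing section, so the lower ratio rests partly on this gene. GAPDH alone made up 51.7% ± 0.130 (SD, n = 3) of the glycolysis sum in NC, against 51.6% ± 0.595 (SD, n = 3) in siFSCN1. The glycolysis sum leaves out 2 rows that overlap ALDOA and LDHB on the same strand, described below. With them it averaged 7166 FPKM in NC and 4977 FPKM in siFSCN1, or 69.5%. The GAPDH share is then lower, and the ratio to the pentose phosphate sum higher, in both groups. The 33 genes together made up 3.39% ± 0.052 (SD, n = 3) of all counts in NC, which compares with 2.42% ± 0.045 (SD, n = 3) in siFSCN1.

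**Figure D2:**
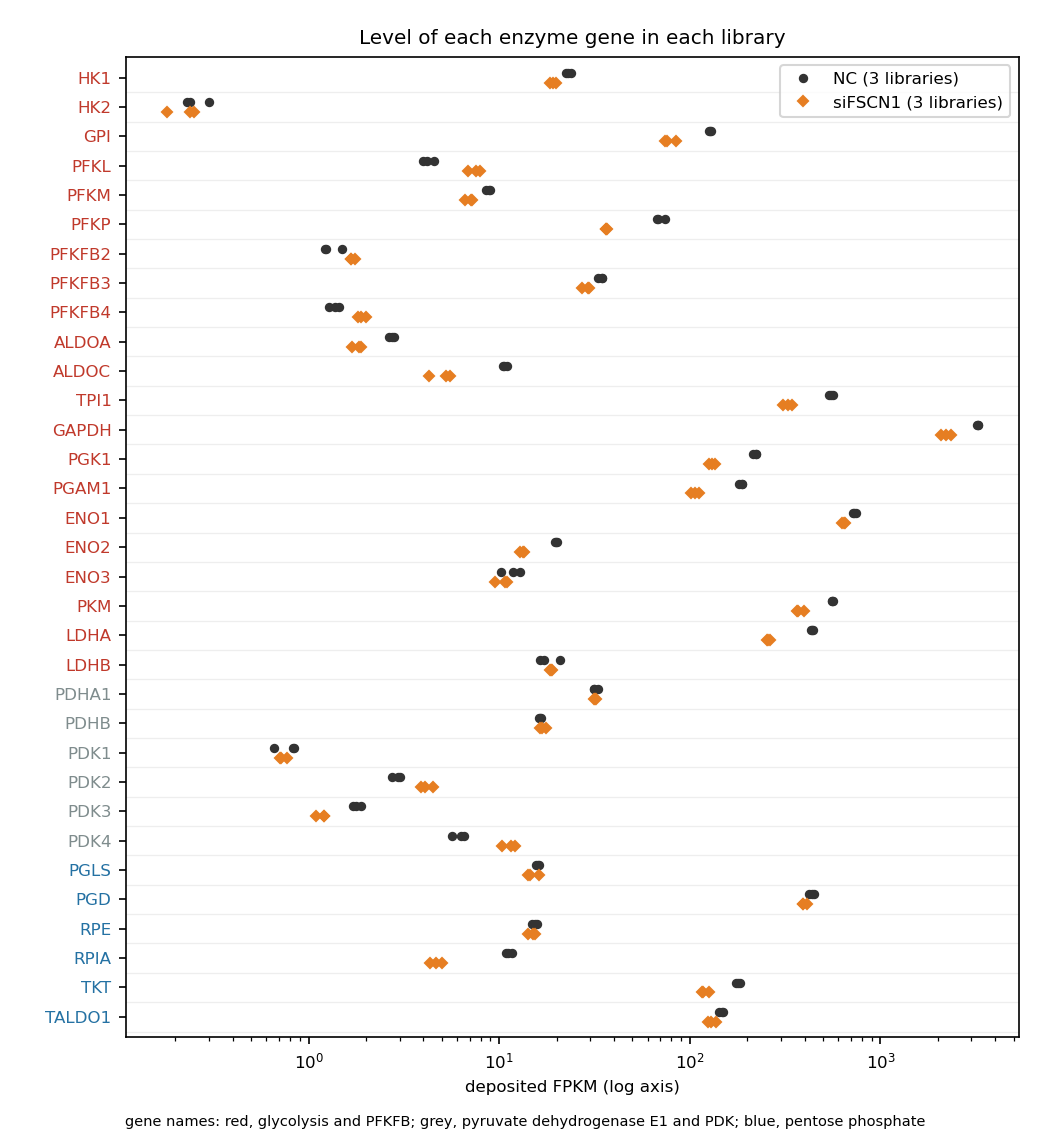
Deposited FPKM (x axis, log scale) of each enzyme gene in the 3 NC libraries (dark circles) and the 3 siFSCN1 libraries (orange diamonds). Levels run from 0.18 FPKM for HK2 to 3244 FPKM for GAPDH, and the groups stand clear of each other for most of the abundant enzymes.

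Level matters for reading these changes, because abundant transcripts as a whole were lower in siFSCN1. Of the 320 tested genes with a mean of at least 100 FPKM, 81.9% fell, with a median log2 fold change of -0.41. The 11 enzymes in that range all fell, with a median of -0.75. Among them the 8 glycolysis genes had a median of -0.89 and the 3 pentose phosphate genes, PGD, TKT and TALDO1, a median of -0.34. In the range of 10 to 100 FPKM the median was -0.29 for 10 enzymes and -0.26 for 2812 tested genes, and 9 of the 10 fell, against 63.8% of the tested genes. Between 1 and 10 FPKM, 5 of 10 enzymes fell, against 35.6% of 7974 tested genes. Once the trend of fold change with level was taken out, 16 glycolysis genes were called lower (HK2 in place of ENO1), with a median of -0.34 over the 21. In the same fit 2 pentose phosphate genes, TKT and RPIA, were called lower and the median of that pathway was -0.09. Of all tested genes 33.9% were called lower there, a share near that of the pentose phosphate genes.

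**Figure D3:**
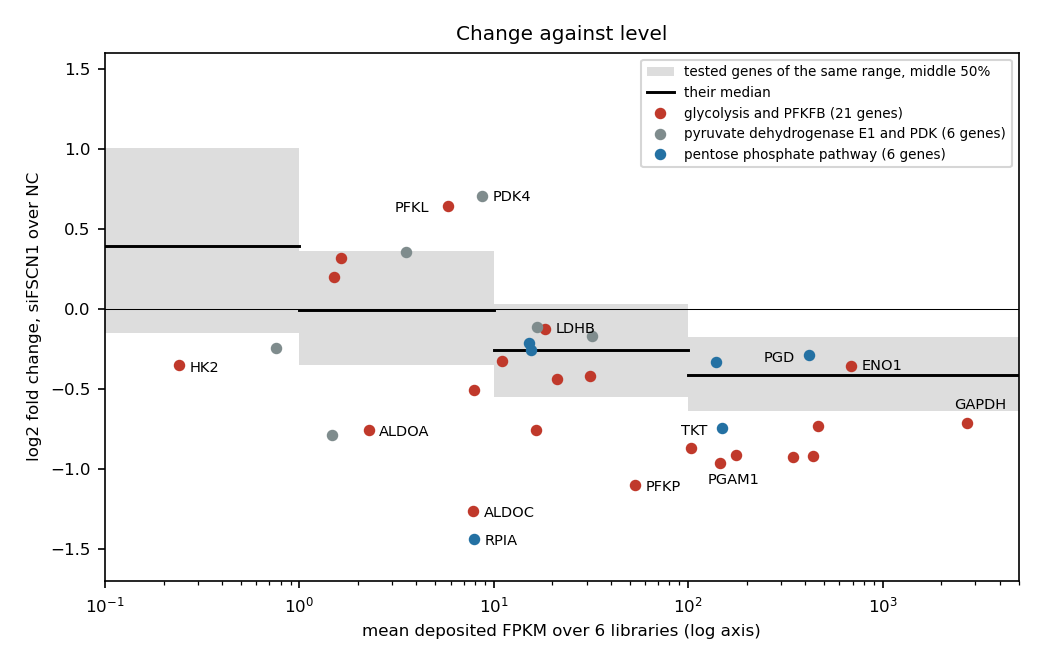
Log2 fold change (y axis) against mean deposited FPKM (x axis, log scale) for the 33 enzymes, over the median (black line) and middle 50% (grey) of all tested genes in 4 ranges of FPKM, the lowest drawn from 0.1. Of the 11 enzymes at 100 FPKM or more, PGD, TALDO1 and ENO1 lie inside the grey band and the other 8 below it.

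The first steps of glycolysis trap glucose as glucose 6-phosphate and turn it into fructose 6-phosphate. HK1, the housekeeping hexokinase, was at 22.9, 22.5 and 23.9 FPKM in NC and 19.8, 18.5 and 19.1 FPKM in siFSCN1. It fell with a log2 fold change of -0.44 (SE 0.039, adjusted p = 1.1e-08, edgeR). HK2, the hexokinase often raised in tumours, was scarce here, with 48 to 65 counts in NC and 40 to 57 in siFSCN1. Its groups overlapped, and its log2 fold change of -0.35 had a 95% interval of -0.80 to 0.10 (adjusted p = 0.15, edgeR). Of HK1 and HK2 together, HK1 made up 98.9% of the FPKM in NC and 98.8% in siFSCN1. A further hexokinase that is not among the 33, HKDC1, named after its values were seen, was nearly as abundant as HK1, at 21.3, 21.5 and 22.2 FPKM in NC and 14.0, 13.2 and 13.8 FPKM in siFSCN1 (log2 fold change -0.83, adjusted p = 6.5e-12, edgeR). GPI, which isomerises glucose 6-phosphate, was at 128, 129 and 126 FPKM in NC and 85.1, 76.2 and 74.0 FPKM in siFSCN1. Every siFSCN1 library lay well below NC (log2 fold change -0.87, SE 0.044, adjusted p = 5.2e-12, edgeR).

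Phosphofructokinase commits sugar to glycolysis and is built from 3 subunit types, of which the platelet type PFKP led in these cells. PFKP was at 67.1, 73.8 and 68.3 FPKM in NC and 36.4, 36.1 and 36.8 FPKM in siFSCN1. The log2 fold change of PFKP was -1.10 (SE 0.040, adjusted p = 6.5e-14, edgeR), the second largest fall of any glycolysis gene after ALDOC. PFKM, the muscle type, fell less, from 8.85, 8.96 and 8.56 FPKM to 7.16, 6.58 and 7.08 FPKM (log2 fold change -0.51, SE 0.048). PFKL, the liver type, went the other way, from 4.55, 3.99 and 4.18 FPKM to 7.94, 7.52 and 6.88 FPKM. Its rise had a log2 fold change of 0.64 (SE 0.060, adjusted p = 2.6e-08, edgeR) and kept its call under every alternative tried.

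The make-up of the phosphofructokinase pool differed between the groups as a result. PFKP was 84.2% ± 0.856 (SD, n = 3) of the summed FPKM of the 3 subunits in NC, against 71.7% ± 0.912 (SD, n = 3) in siFSCN1. PFKL went from 5.14% ± 0.525 (SD, n = 3) to 14.6% ± 0.966 (SD, n = 3), and the pool as a whole from 82.8 FPKM ± 3.44 (SD, n = 3) to 50.8 FPKM ± 0.665 (SD, n = 3). The ratio of PFKP to PFKL was 14.8, 18.5 and 16.3 in NC and 4.59, 4.80 and 5.35 in siFSCN1. That difference, -1.75 in log2 units, gave p = 0.1 in an exact two-sided permutation test (0.113 after Benjamini-Hochberg adjustment over 9 isozyme pairs), and 0.1 is the smallest p that 3 against 3 libraries allow.

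**Figure D4:**
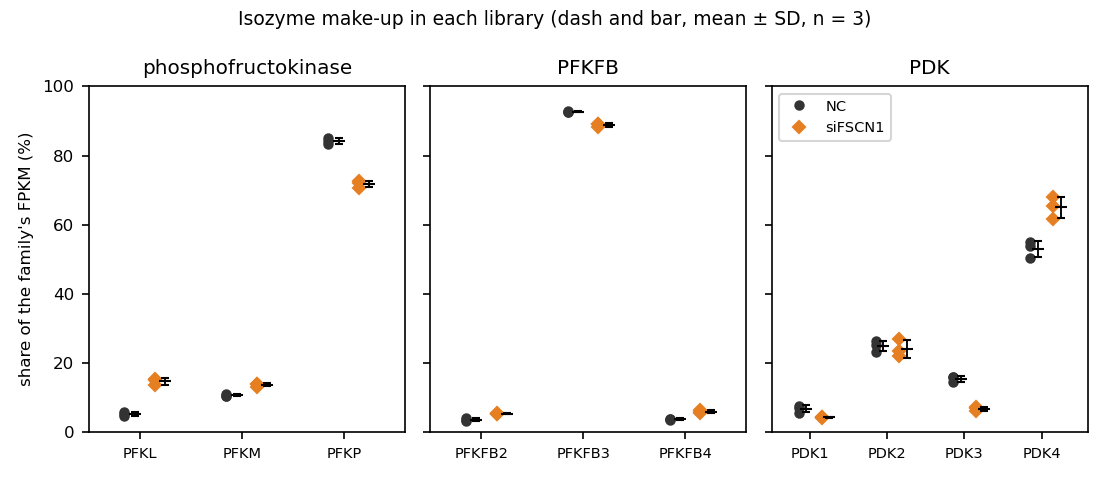
Share of the summed FPKM of a family (y axis, %) held by each isozyme of phosphofructokinase, PFKFB and PDK in each NC library (dark circles) and siFSCN1 library (orange diamonds), with the mean ± SD of 3 beside the points. PFKP loses share while PFKL and PFKM gain it, and PDK4 gains share as PDK3 loses it.

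The PFKFB enzymes set the amount of fructose 2,6-bisphosphate, the strongest activator of phosphofructokinase. PFKFB3, whose kinase activity prevails, was at 34.8, 34.7 and 32.8 FPKM in NC and 29.5, 27.2 and 29.3 FPKM in siFSCN1 (log2 fold change -0.42, SE 0.041, adjusted p = 4.5e-08, edgeR). PFKFB4 was far scarcer and rose, from 1.45, 1.28 and 1.37 FPKM to 1.82, 2.01 and 1.89 FPKM. That gave a log2 fold change of 0.32 (SE 0.099, adjusted p = 0.0091, edgeR), and the call was lost without siFSCN1 replicate 2 (0.26) and with the trend with level removed (0.21). PFKFB2, with a log2 fold change of 0.20 (SE 0.079, adjusted p = 0.030, edgeR), had the highest adjusted p of the called enzymes. Its CPM overlapped between the groups, and the call was lost without NC replicate 1 (0.15), NC replicate 3 (0.14), siFSCN1 replicate 1 (0.17) or siFSCN1 replicate 2 (0.20), with DESeq2 (0.17) and with the trend with level removed (0.18). PFKFB3 held 92.7% ± 0.159 (SD, n = 3) of the summed PFKFB level in NC, against 88.8% ± 0.611 (SD, n = 3) in siFSCN1.

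Aldolase splits fructose 1,6-bisphosphate into a pair of triose phosphates. The row of ALDOC, the brain-type aldolase, was at 11.0, 10.4 and 10.7 FPKM in NC and 5.53, 5.24 and 4.26 FPKM in siFSCN1. This was the largest fall among the glycolysis genes, with a log2 fold change of -1.26 (SE 0.073, adjusted p = 3.4e-11, edgeR). ALDOA, the general aldolase that is abundant in most cells, appeared in the table with only 386, 356 and 433 counts in NC and 275, 265 and 248 counts in siFSCN1. Its row fell as well (log2 fold change -0.76, SE 0.101, adjusted p = 2.5e-06, edgeR).

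The annotation holds a second protein-coding row on the same strand as ALDOA, CTD-2515O10.6, which covers 42.8% of the exonic bases of ALDOA. It held 84367, 75116 and 98054 counts in NC and 65905, 60403 and 56602 counts in siFSCN1, so that the ALDOA row held 0.444% of the counts of both rows. Summed with ALDOA, an alternative chosen after seeing the data, the log2 fold change was -0.67 (SE 0.046). LDHB had the same arrangement. Its row held 1884, 1613 and 2653 counts in NC and 2126, 2109 and 2092 in siFSCN1, while ENSG00000285854.1, a protein-coding row which covers 33.4% of its exonic bases on the same strand, held 44846, 40817 and 53079 counts and 42258, 42061 and 43333 counts. The LDHB row was 4.47% of the counts of both. The levels of ALDOA and LDHB, and any ranking of aldolases or lactate dehydrogenases by level, therefore rest on the small share of reads that were assigned to these rows.

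**Figure D5:**
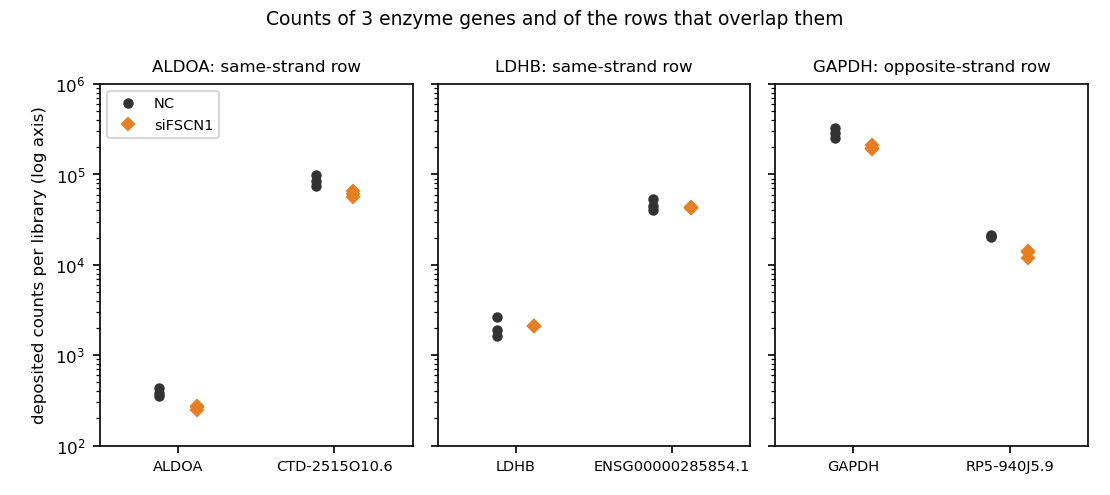
Deposited counts per library (y axis, log scale) of ALDOA, LDHB and GAPDH and of the row that overlaps each of them, in NC (dark circles) and siFSCN1 (orange diamonds). The rows that share the strand of ALDOA and LDHB hold most of the counts of each pair, while the opposite-strand row at GAPDH holds few beside GAPDH.

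TPI1, the triosephosphate isomerase that interconverts the products of aldolase, was at 562, 547 and 535 FPKM in NC and 342, 326 and 308 FPKM in siFSCN1. The gene had a log2 fold change of -0.92 (SE 0.042, adjusted p = 1.4e-12, edgeR). In TPI1, GAPDH, PGK1, PGAM1, ENO1, PKM and LDHA, the abundant genes from the triose phosphates to lactate, every siFSCN1 library lay below every NC library.

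GAPDH, which oxidises glyceraldehyde 3-phosphate and yields NADH, was the most abundant of the enzymes. It was at 3244, 3231 and 3203 FPKM in NC and 2333, 2203 and 2082 FPKM in siFSCN1. The log2 fold change was -0.71 (SE 0.045, adjusted p = 9.9e-11, edgeR), with a 95% interval of -0.81 to -0.62, and it ran from -0.76 to -0.31 over the alternatives. GAPDH also served as the reference gene of the study's RT-qPCR, and the primers are shown because they place that measurement on the transcript whose level is given here. Both primers fall in coding sequence of GAPDH in GRCh38. The forward primer joins exons 2 and 3 (chr12:6534847-6536498, the intron included) and the reverse primer reads from the minus strand of exon 4 (chr12:6536766-6536786).
GAPDH forward: ggtcggagtcaacggatttg
GAPDH reverse: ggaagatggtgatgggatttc
A long non-coding RNA row on the opposite strand, RP5-940J5.9, covers 17.6% of the exonic bases of GAPDH and held 21505, 20407 and 20832 counts in NC and 14009, 14207 and 11882 counts in siFSCN1. The GAPDH row held 93.5% of the counts of both, and the opposite row's log2 fold change was -0.84 (SE 0.075). The strand setting of the counting was not given in the sources used here, so where these rows overlap their reads cannot be told apart.

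PGK1, which makes the first ATP of glycolysis, was at 223, 221 and 214 FPKM in NC and 135, 131 and 127 FPKM in siFSCN1 (log2 fold change -0.91, SE 0.039, adjusted p = 5e-13, edgeR). PGAM1, the mutase that moves the phosphate group of phosphoglycerate, went from 188, 189 and 181 FPKM to 112, 107 and 101 FPKM. With a log2 fold change of -0.96 (SE 0.041, adjusted p = 4.5e-13, edgeR) it fell furthest among the enzymes above 100 FPKM. The 95% intervals of TPI1, PGK1, PGAM1 and LDHA all overlapped each other.

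The enolases, which form phosphoenolpyruvate, differed in how far they fell. ENO1, the general enolase, was at 746, 721 and 724 FPKM in NC and 655, 640 and 625 FPKM in siFSCN1. The log2 fold change of -0.36 (SE 0.040, adjusted p = 2.6e-07, edgeR) was the smallest of the 8 abundant glycolysis genes, and it turned to 0.03 once the trend with level was removed. ENO2, the neuronal enolase, went from 19.8, 20.2 and 19.7 FPKM to 13.4, 13.3 and 12.9 FPKM (log2 fold change -0.76, SE 0.043, adjusted p = 3e-11, edgeR). ENO3, the muscle enolase, had overlapping FPKM values in the groups and a log2 fold change of -0.33 (adjusted p = 0.00063, edgeR), which did not pass with library totals (-0.14) or with limma on log2(FPKM + 0.1) (-0.16) and log2(FPKM + 1) (-0.15). The ratio of ENO2 to ENO1 was 0.027, 0.028 and 0.027 in NC and 0.021 in each siFSCN1 library, a log2 difference of -0.40 (exact two-sided permutation test, p = 0.1, 0.113 after adjustment).

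PKM, the pyruvate kinase that closes glycolysis with a second ATP, was at 562, 557 and 554 FPKM in NC and 396, 368 and 364 FPKM in siFSCN1. PKM thus fell with a log2 fold change of -0.74 (SE 0.041, adjusted p = 2.2e-11, edgeR). LDHA, the lactate dehydrogenase subunit that favours lactate, was at 430, 443 and 437 FPKM in NC and 264, 254 and 257 FPKM in siFSCN1. Its siFSCN1 libraries lay close together and far below NC (log2 fold change -0.92, SE 0.037, adjusted p = 2.3e-13, edgeR). LDHB, the heart-type subunit, was at 17.2, 16.3 and 20.8 FPKM in NC and 18.7, 18.9 and 18.4 FPKM in siFSCN1 and did not pass (log2 fold change -0.12, adjusted p = 0.11, edgeR), though it did without NC replicate 2 (-0.20) and with no filter (-0.14), and it turned positive with library totals (0.063). Summed with the row that overlaps it, LDHB fell by 0.29 on the log2 scale (95% interval -0.37 to -0.22). The log2 ratio of LDHB to LDHA was higher in siFSCN1 by 0.81, or by 0.63 with the overlapping row summed, each at p = 0.1 in the exact permutation test.

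Promoters are printed for 4 glycolysis genes that fell and were picked because they hold ACGTG (LDHA, PGK1, ALDOC and GPI). They are also printed for PGAM1 and RPIA, which fell as well and whose printed stretches do not hold it. The motif was chosen because glycolysis genes are textbook targets of the hypoxia-inducible factor, which binds ACGTG. Each stretch is the 250 bases before the first start listed by RefSeq on GRCh38.p14, written along the gene, with ACGTG on either strand in capitals (as CACGTG where it sits in that longer motif, and as CACGT where it reads on the other strand). In GENCODE v44 PGK1, GPI and PGAM1 begin further upstream, at chrX:77910739, chr19:34359480 and chr10:97426191. Their printed stretches thus lie inside the annotated genes, and the sequence before those earlier starts is not part of them. ALDOC begins there at chr17:28576948 and LDHA at chr11:18394560, so the last bases of their stretches also lie inside the annotated genes. For ALDOC these bases hold the match that starts 28 bases before the RefSeq start.
LDHA (chr11:18394313-18394562, plus strand): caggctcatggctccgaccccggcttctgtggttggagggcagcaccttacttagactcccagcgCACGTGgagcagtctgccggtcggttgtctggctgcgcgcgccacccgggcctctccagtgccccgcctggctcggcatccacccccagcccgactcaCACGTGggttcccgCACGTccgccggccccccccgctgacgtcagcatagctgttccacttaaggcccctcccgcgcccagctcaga
PGK1 (chrX:78103998-78104247, plus strand): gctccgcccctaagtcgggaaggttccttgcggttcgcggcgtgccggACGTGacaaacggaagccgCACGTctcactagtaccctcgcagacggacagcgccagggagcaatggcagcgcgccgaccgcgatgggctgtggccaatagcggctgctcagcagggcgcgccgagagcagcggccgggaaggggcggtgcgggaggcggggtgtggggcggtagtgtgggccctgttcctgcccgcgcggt
ALDOC (chr17:28576896-28577145, minus strand): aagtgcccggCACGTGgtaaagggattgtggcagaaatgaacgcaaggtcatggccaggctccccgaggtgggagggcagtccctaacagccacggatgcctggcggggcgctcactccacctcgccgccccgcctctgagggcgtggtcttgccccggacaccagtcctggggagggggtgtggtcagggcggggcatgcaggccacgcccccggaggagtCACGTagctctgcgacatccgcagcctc
GPI (chr19:34364742-34364991, plus strand): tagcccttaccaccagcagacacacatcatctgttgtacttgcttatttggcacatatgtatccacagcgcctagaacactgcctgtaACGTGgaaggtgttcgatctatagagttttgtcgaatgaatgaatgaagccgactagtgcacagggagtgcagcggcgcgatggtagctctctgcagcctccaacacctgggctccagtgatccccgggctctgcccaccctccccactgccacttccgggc
PGAM1 (chr10:97427568-97427817, plus strand): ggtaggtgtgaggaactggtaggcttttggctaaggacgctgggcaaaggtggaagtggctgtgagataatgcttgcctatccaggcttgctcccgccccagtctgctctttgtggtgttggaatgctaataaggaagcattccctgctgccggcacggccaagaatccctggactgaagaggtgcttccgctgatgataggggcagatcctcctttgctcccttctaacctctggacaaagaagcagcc
RPIA (chr2:88691423-88691672, plus strand): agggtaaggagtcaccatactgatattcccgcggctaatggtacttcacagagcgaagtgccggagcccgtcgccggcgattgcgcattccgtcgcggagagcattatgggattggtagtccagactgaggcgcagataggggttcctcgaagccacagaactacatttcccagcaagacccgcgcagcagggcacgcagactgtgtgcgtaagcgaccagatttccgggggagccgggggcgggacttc
LDHA held 3 such matches, starting 185, 87 and 73 bases before the start, PGK1 and ALDOC held 2 each, GPI held 1, and PGAM1 and RPIA none. Over windows of 300 bases (50 after the start included) ACGTG was found in 8 of 20 matched glycolysis promoters, 2 of 6 of the pyruvate dehydrogenase step and 1 of 6 of the pentose phosphate pathway, and in 21.6% of all 27305 promoters. Of the 16 glycolysis genes that fell, 7 held it in these windows and 9 did not. CCAAT was found in 5 of 6 pentose phosphate promoters, 5 of 6 pyruvate dehydrogenase promoters and 4 of 20 glycolysis promoters, against 35.7% of all. GGGCGG was in 16 of 20, 4 of 6 and 6 of 6 promoters of glycolysis, pyruvate dehydrogenase and pentose phosphate genes, against 44.6% of all. The E-box CACGTG, which contains ACGTG, was in 3 of 20 glycolysis promoters (7.43% of all), and TGACNNNGC, the core of the antioxidant response element, in 4 of 20 glycolysis and 2 of 6 pentose phosphate promoters (13.6% of all). These matches describe the letters of the windows and say nothing about binding. PFKFB2 was not matched.

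Of 18 genes outside glycolysis on a hypoxia list, 8 fell and 6 rose, against 33.2% and 35.1% of all tested genes, and 4 did not pass. The list holds targets of the hypoxia-inducible factor and also HIF1A, a gene of the factor rather than a target. Those 4 were ADM, ANKRD37, ANKZF1 and HIF1A itself, which were named after their values were seen. CA9, a carbonic anhydrase at the cell surface, went from 28.7, 29.1 and 27.2 FPKM to 14.4, 12.2 and 10.5 FPKM (log2 fold change -1.36, SE 0.078, adjusted p = 2.8e-11, edgeR). CA12, its close relative, fell by 1.13 on the log2 scale, and P4HA1, a collagen prolyl hydroxylase subunit, by 1.33. Of those that rose, DDIT4 (log2 fold change 0.97), VEGFA (0.73) and MXI1 (0.57), also named after their values were seen, rose most. The median log2 fold change of the 18 genes was -0.08.

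Pyruvate dehydrogenase joins glycolysis to mitochondrial respiration. PDHA1 and PDHB, the subunits of its E1 component, fell only slightly on the TMM scale, by 0.17 and 0.11 on the log2 scale (adjusted p = 0.00048 and 0.025, edgeR), and PDHB turned to 0.0043 with upper quartile scaling and both to 0.015 and 0.073 with library totals. PDHA1 was at 31.4, 31.5 and 32.9 FPKM in NC and 32.1, 31.9 and 31.4 FPKM in siFSCN1, so that on the FPKM scale the groups overlapped. With limma on either FPKM scale neither was called. The call of PDHB was also lost with the strict filter (-0.085) and without NC replicate 3 (-0.12), siFSCN1 replicate 2 (-0.13) or siFSCN1 replicate 3 (-0.10).

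The 4 kinases that switch off pyruvate dehydrogenase went in different directions. PDK4, the isozyme known to rise in fasting, was at 5.63, 6.34 and 6.57 FPKM in NC and 10.3, 11.5 and 12.1 FPKM in siFSCN1. Its log2 fold change of 0.70 (SE 0.067, adjusted p = 3.2e-08, edgeR) was the largest rise of the 33 enzymes. PDK2 rose from 2.93, 2.74 and 3.02 FPKM to 4.49, 4.10 and 3.91 FPKM (log2 fold change 0.35, SE 0.062, adjusted p = 6.2e-05, edgeR). PDK3 fell from 1.77, 1.88 and 1.72 FPKM to 1.20, 1.20 and 1.09 FPKM, with a log2 fold change of -0.79 (SE 0.060, adjusted p = 1.6e-09, edgeR). For PDK1, a hypoxia-inducible isozyme, the groups overlapped at 0.66 to 0.84 FPKM in NC and 0.71 to 0.77 FPKM in siFSCN1 (log2 fold change -0.24, adjusted p = 0.050, edgeR), and it passed without NC replicate 3 (-0.36) or siFSCN1 replicate 2 (-0.29), with RLE scaling (-0.26), with DESeq2 (-0.27), with no filter (-0.25) and with the trend with level removed (-0.32).

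Among the PDKs, PDK4 made up 53.0% ± 2.34 (SD, n = 3) of the summed FPKM in NC, against 65.0% ± 3.15 (SD, n = 3) in siFSCN1, and PDK3 15.4% ± 0.883 (SD, n = 3) and 6.72% ± 0.535 (SD, n = 3). The pool rose from 11.6 FPKM ± 0.420 (SD, n = 3) to 17.3 FPKM ± 0.569 (SD, n = 3). The log2 ratio of PDK3 to PDK1 differed by -0.55 and that of PDK1 to PDK2 by -0.60, each with no overlap between groups and p = 0.1 in the exact permutation test. Of the 9 isozyme pairs compared, 8 reached that smallest p, and HK2 to HK1 did not (difference 0.07, exact permutation p = 1). Reaching it means only that the ratios do not overlap between groups, and such separation was common. By CPM, siFSCN1 lay below all of NC for 34.4% of tested genes and above for 36.8%. Ratios of other gene pairs were not compared, so the 8 pairs are not shown to stand apart.

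All 6 pentose phosphate genes fell, and the branches overlapped in how far they did. The median log2 fold change was -0.28 for PGLS and PGD of the oxidative branch and -0.54 for the 4 genes of the non-oxidative branch. PGLS, the lactonase, was at 16.2, 15.7 and 16.0 FPKM in NC and 16.2, 14.5 and 14.2 FPKM in siFSCN1, which overlapped at the upper end. The fall of PGLS had a log2 fold change of -0.26 (SE 0.053, adjusted p = 0.0003, edgeR), and it was no longer called with library totals, with limma on either FPKM scale or with the trend with level removed. PGD, the NADPH-forming 6-phosphogluconate dehydrogenase, was the most abundant enzyme of the pathway, at 447, 424 and 439 FPKM in NC and 414, 393 and 394 FPKM in siFSCN1. It fell with a log2 fold change of -0.29 (SE 0.038, adjusted p = 2.1e-06, edgeR), less than the median of -0.41 of all tested genes of its level, and was at 0.07 once the trend with level was removed.

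The non-oxidative branch held both the largest and the smallest change of the pathway. RPIA, which isomerises ribulose 5-phosphate to ribose 5-phosphate, was at 11.2, 11.6 and 10.9 FPKM in NC and 4.99, 4.31 and 4.68 FPKM in siFSCN1. Its log2 fold change of -1.44 (SE 0.074, adjusted p = 7.7e-12, edgeR) was the largest fall of all 33 enzymes and stayed between -1.49 and -1.11 over the alternatives. RPE, the epimerase that acts on the same ribulose 5-phosphate, was at 15.0, 15.8 and 15.5 FPKM in NC and 15.1, 14.1 and 15.5 FPKM in siFSCN1. Its log2 fold change of -0.22 (SE 0.049, adjusted p = 0.0008, edgeR) did not pass with upper quartile scaling, library totals, limma on either FPKM scale or the trend with level removed. The 95% intervals of RPIA (-1.59 to -1.28) and RPE (-0.32 to -0.11), which share a substrate, were far apart.

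TKT, the transketolase that moves 2-carbon units between sugars, was at 184, 175 and 180 FPKM in NC and 126, 117 and 116 FPKM in siFSCN1. It fell with a log2 fold change of -0.75 (SE 0.040, adjusted p = 1.1e-11, edgeR), close to GAPDH and PKM. TALDO1, the transaldolase that works beside it, went from 149, 142 and 148 FPKM to 137, 130 and 124 FPKM (log2 fold change -0.34, SE 0.039, adjusted p = 4.4e-07, edgeR). The 95% intervals of TKT (-0.83 to -0.66) and TALDO1 (-0.42 to -0.25) did not overlap.

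Other enzymes of the same or neighbouring steps were read from a list of 41 genes, of which 37 had a row and 26 were tested. Of these 14 fell, 5 rose and 7 did not pass, where 33.2% of all tested genes fell and 35.1% rose, with a median log2 fold change of -0.26. ADPGK, an ADP-dependent glucokinase, fell from 10.5, 11.2 and 10.8 FPKM to 5.93, 5.54 and 5.38 FPKM (log2 fold change -1.12, SE 0.051, adjusted p = 1.3e-12, edgeR). SHPK, which phosphorylates sedoheptulose, fell by 1.29 on the log2 scale from 1.63, 1.63 and 1.77 FPKM to 0.92, 0.68 and 0.71 FPKM. The 5 that rose, named after their values were seen, were PDP1 (0.94) and PDPR (0.41) of the pyruvate dehydrogenase phosphatase, MPC1 of the mitochondrial pyruvate carrier (0.38), PGM2L1 (0.53) and H6PD (0.34), all as log2 fold changes.

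Copies elsewhere in the genome took few reads. The table held 33 pseudogene rows of 8 of the enzymes, and they never held more than 0.516% of the counts of the parent gene. Rows on the opposite strand cover 38.6% of the exonic bases of PDK2, 23.8% of those of RPE and 19.3% of those of PDHA1, and held 6.37%, 4.28% and 3.39% of the number of counts of these genes. At PFKM the opposite row covers 7.12% of the exonic bases and held 28.1% of its number of counts. Of the 33 enzymes, 20 kept both direction and call under all 17 alternatives to the scaling, filter, test, samples and unit, and 15 of these 20 were glycolysis genes. The matching share over all tested genes was not worked out, so this count does not set the enzymes apart from other genes.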

How the data were processed

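The authors trimmed the reads with the FASTX Toolkit, used HISAT2 against GRCh38 and counted reads mapped to a unique place, whereas the submitters' processing notes name TopHat2 (with bcl2fastq). They deposited raw counts for 30230 genes and FPKM for 29899 genes. Which program counted the reads, with which strand setting and annotation, was not given in the sources used here. Libraries were directional, per the labels.

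Genes passing filterByExpr (17076) were scaled by TMM and compared over all 6 libraries with edgeR 4.0.16 (R 4.3.3), quasi-likelihood test, no covariate, Benjamini-Hochberg adjustment over all tested genes. The common biological coefficient of variation was 5.94%. Calls used an adjusted p under 0.05. Standard errors came from the fitted fold change and its F statistic. Summed FPKM and isozyme ratios used the deposited FPKM without a pseudocount, with exact permutation tests over libraries (scipy 1.17.1). The fit was first tested on simulated data. Overlaps and positions came from GENCODE v44. Promoter sequences came from RefSeq (32 of 33 genes matched), primer sequences from the study's supplement.

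The members and gene lists were chosen with earlier results of these data known. Named genes are FSCN1, all 33 members, and genes of the other lists past the threshold with a fold change of at least 2. HKDC1, the hypoxia-inducible and neighbouring genes under that fold change, and the cell type markers were named outside this rule.

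Alternatives were RLE, upper quartile and library total scaling, DESeq2 1.42.0, leaving genes unfiltered (at least 1 count in all), filtering harder (at least 1 CPM in 3 libraries and 10 counts on average), a block for replicate number, each library left out, limma 3.58.1 on log2(FPKM + 0.1) and log2(FPKM + 1), and removal of the trend with abundance. Isozyme ratios were also taken from CPM and from log2(FPKM + 0.1), and sums without the largest member and as TPM. Summing the rows that overlap ALDOA and LDHB by at least 20% of exonic bases on the same strand was chosen after seeing the data. Same-numbered libraries did not deviate together (correlations of -0.03, 0.04 and -0.08), so the numbers were not taken to pair the samples.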

Additional observations from a re-analysis of the deposited data

How the results depend on the processing

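Of 561 values of single enzymes under alternatives, 510 kept direction and call, 28 lost the call, 10 gained it and 13 changed sign. With the trend with abundance removed the signs of ENO1 (0.032), LDHB (0.037), PDHA1 (0.061), PDHB (0.076) and PGD (0.067) turned, 1 glycolysis gene was higher in place of 3, and 2 pentose phosphate genes were lower in place of 6. Under that fit 33.9% of all tested genes were lower. With library totals LDHB (0.063), PDHA1 (0.015) and PDHB (0.073) turned, and with upper quartile scaling PDHB (0.0043). With limma on log2(FPKM + 0.1) and log2(FPKM + 1), LDHB was at 0.051 and 0.048 and PDHB at 0.052 and 0.049. On the log2(FPKM + 1) scale 471 of all tested genes were changed at least 2-fold, against 2820. Of the pyruvate dehydrogenase genes 1 fell, in place of 3, with upper quartile scaling, library totals and limma on either scale. In the same order, 26.4%, 22.4%, 23.0% and 22.9% of all tested genes fell. Without PGD, its largest member, the pentose phosphate sum fell by 0.37 on the log2 scale in place of 0.23. Leaving out each library gave 1 to 3 higher glycolysis genes, the 1 without siFSCN1 replicate 2, and a difference of the log2 ratio of HK2 to HK1 from -0.031 to 0.24, negative without NC replicate 3, siFSCN1 replicate 2 or siFSCN1 replicate 3. The other causes were not tested. The replicate number as a block changed no call or direction among 43 results, with 2827 genes changed at least 2-fold under the block.

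HK2, ALDOA, PFKFB4 and PDK1 rest on few counts, as does RPIA in siFSCN1 (292 to 344 counts). With 3 libraries a group, no exact p can fall under 0.1.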
